A study of Mus musculus with 23 samples.

Results

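The genes described here build the basement membrane of the mammary epithelium and anchor cells to it. They are the 45 of 24918 gene symbols in the 3 deposited tables that name a laminin chain, a collagen IV chain or an integrin subunit, or that are Nid1, Nid2, Hspg2, Agrn, Dag1, Col17a1, Dst or Plec. The rule reads names only and uses no measured value. It gives 11 laminin chains, 6 collagen IV chains, the 4 linkers Nid1, Nid2, Hspg2 and Agrn, the receptor Dag1, 20 integrin subunits and the hemidesmosome genes Col17a1, Dst and Plec, which were described together with the integrin subunits Itga6 and Itgb4 as a hemidesmosome group of 5.

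A basement membrane is a sheet of matrix under epithelia and around vessels, muscle and fat. Laminins, trimers of an alpha, a beta and a gamma chain, polymerise on the cell surface and are tied to a collagen IV network by nidogens, perlecan (Hspg2) and agrin. Integrins, pairs of an alpha and a beta subunit, and dystroglycan (Dag1) are the receptors. In a hemidesmosome the integrin of the alpha6 and beta4 subunits binds a laminin that holds the alpha3 and beta3 chains, and plectin (Plec), dystonin (Dst) and collagen XVII (Col17a1) tie it to keratin filaments. In the mammary gland the basal, myoepithelial cells sit on this sheet, while most luminal cells lie above them.

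The data are RNA-seq of 23 libraries of mouse mammary cells in 9 groups, each library from about 2000 cells sorted by flow cytometry. Normal cells of the C57BL6J strain were fetal mammary stem cells, called fMaSC, taken from embryos at day 18 and, from adults, basal cells (Basal), mature luminal cells (ML) and luminal progenitors (LP), with 2 libraries each. PY230 cells, a C57BL6J mammary tumour line that is a single line, were transplanted into syngeneic mice, and the tumours gave basal SOX10 high, luminal SOX10 high and luminal SOX10 low cells, with 2 libraries each. Spontaneous tumours of FVB mice carrying C3-1-TAg, a transgene in which a prostate gene's control region drives the SV40 T antigen also in the mammary gland, were sorted into a SOX10 high fraction with 5 libraries and a SOX10 low fraction with 4, and the titles call both basal. SOX10 is a transcription factor of neural crest and mammary progenitor cells. Sox10 itself averaged 75.1 ± 4.45 RPKM in PY230 basal SOX10 high, 84.0 ± 24.2 in PY230 luminal SOX10 high and 12.3 ± 1.83 in PY230 luminal SOX10 low cells (SD, n = 2 each). In the C3-1-TAg tumours it ran from 91.9 to 164 RPKM in SOX10 high and from 2.10 to 40.9 RPKM in SOX10 low libraries, with no overlap. No label states the markers and gates of the sorts or how SOX10 level was read. Itga6 (CD49f), Itgb1 (CD29), Itgb3 (CD61) and Itga2 (CD49b) are commonly used to sort mammary cells, so for these genes a difference between populations and the gate cannot be told apart.

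Values are RPKM, read numbers divided by the length of the gene and the size of the library, which allows levels of different genes to be set side by side. Groups were compared within a table with limma on log2(RPKM + 1), and a gene was called at an adjusted p under 0.05 over all genes tested. Nothing in the labels ties a library to an animal, so the p-values measure the spread between these libraries, which may be partly technical. Every mean ± SD of normal and PY230 groups is over n = 2 libraries. Fold changes on this scale understate the change of genes near 0. Of the 45 genes, the filter on low values was passed by 36 in the normal table, by 39 for PY230 and by 33 for C3-1-TAg. Of these, 2 in the normal table (Col4a3 and Itga1, through Basal) and 5 in the PY230 table (Lama1, Lamc3, Nid2, Itga1 and Itga9, through basal SOX10 high) reached the filter in 1 group only, so that they had to be high there. In the normal table Lama2, Lamc3, Col4a4, Itga4, Itga7, Itga10, Itga11, Itgb2 and Itgb7 were not tested, and Lamc3 was listed at 0 in all 8 libraries. In the PY230 table Lama2, Col4a3, Col4a4, Itga4, Itga11 and Itgb7 were not tested. In bulk samples fewer expressing cells and less RNA per cell cannot be told apart.

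Basal markers followed the population labels of the normal and PY230 groups. The summed RPKM of 7 basal markers was 832 and 823 in fMaSC and 1781 and 842 in Basal, against 14.3 and 10.7 in ML and 10.6 and 17.7 in LP. In PY230 tumours it was 2755 and 2391 in basal SOX10 high, against 72.3 and 92.2 in luminal SOX10 high and 51.7 and 28.4 in luminal SOX10 low cells. The normal Basal libraries also held luminal RNA. Their 7 mature luminal markers summed to 1647 and 1178 RPKM, against 8983 and 8927 RPKM in ML and 1272 and 1083 RPKM in LP. Of these, 7 were lower in Basal than in ML and 0 were called against LP. The 6 general luminal markers were all lower in Basal than in ML and LP, but summed to 3157 and 1592 RPKM there. The C3-1-TAg libraries went partly against the title basal: Krt14 reached 89.7 to 776 RPKM in SOX10 high and 275 to 1007 RPKM in SOX10 low libraries, but Acta2, the smooth muscle actin of myoepithelium, averaged 3.08 RPKM in SOX10 high and 3.18 RPKM in SOX10 low cells.

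The paired collagen IV genes are shown first, because Col4a1 with Col4a2 and Col4a5 with Col4a6 lie head to head in the genome. The sequences are RefSeq promoter windows of build GRCm38.p6, 250 bases before to 50 after each start, 5′ to 3′ on the gene's strand; the tables were made on build mm9, whose coordinates differ. Capitals in the first pair mark the 78 bases, chr8:11312777-11312854, that both windows share on opposite strands.
Col4a1 promoter, chr8:11312777-11313076, minus strand: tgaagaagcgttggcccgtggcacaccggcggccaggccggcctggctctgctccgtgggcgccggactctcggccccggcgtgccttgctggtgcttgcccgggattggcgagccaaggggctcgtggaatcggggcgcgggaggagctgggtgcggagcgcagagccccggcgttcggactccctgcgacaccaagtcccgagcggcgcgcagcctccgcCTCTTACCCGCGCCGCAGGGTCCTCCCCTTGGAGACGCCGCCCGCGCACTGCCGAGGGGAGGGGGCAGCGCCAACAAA
Col4a2 promoter, chr8:11312555-11312854, plus strand: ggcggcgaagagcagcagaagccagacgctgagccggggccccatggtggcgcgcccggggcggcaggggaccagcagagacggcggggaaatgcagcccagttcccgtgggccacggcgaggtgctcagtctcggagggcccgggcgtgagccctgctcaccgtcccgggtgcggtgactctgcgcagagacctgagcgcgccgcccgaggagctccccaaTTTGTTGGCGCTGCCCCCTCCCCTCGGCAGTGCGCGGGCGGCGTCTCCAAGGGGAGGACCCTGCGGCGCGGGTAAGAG
The annotated Col4a1 and Col4a2 genes overlap by 85 bases, and without strand in the libraries reads from there cannot be assigned to either. The Col4a5 and Col4a6 windows lie 842 bases apart on chromosome X. Their capitals mark CCAAT and GGGCGG boxes on either strand, motifs that do not overlap each other.
Col4a5 promoter, chrX:141475169-141475468, plus strand: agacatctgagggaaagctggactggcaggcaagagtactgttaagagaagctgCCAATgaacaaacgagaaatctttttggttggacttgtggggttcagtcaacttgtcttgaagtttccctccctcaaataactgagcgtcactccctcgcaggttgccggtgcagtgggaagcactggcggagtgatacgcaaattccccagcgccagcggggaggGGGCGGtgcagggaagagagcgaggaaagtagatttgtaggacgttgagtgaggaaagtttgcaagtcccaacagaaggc
Col4a6 promoter, chrX:141474027-141474326, minus strand: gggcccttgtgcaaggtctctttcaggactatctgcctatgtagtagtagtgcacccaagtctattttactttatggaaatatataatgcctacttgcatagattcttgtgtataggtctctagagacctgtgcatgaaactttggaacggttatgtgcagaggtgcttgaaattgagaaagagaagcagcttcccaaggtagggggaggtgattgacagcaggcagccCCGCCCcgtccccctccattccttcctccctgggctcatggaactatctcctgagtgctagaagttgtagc
Of the 45 genes, 31 had a promoter in the RefSeq table. GGGCGG was in 19 of these 31 (61.3%) and in 35.9% of all 27025 promoters, and CCAAT in 8 of 31 (25.8%) and in 37.9% of all promoters. These matches are letters in a window, not tested sites.

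**Figure D1:**
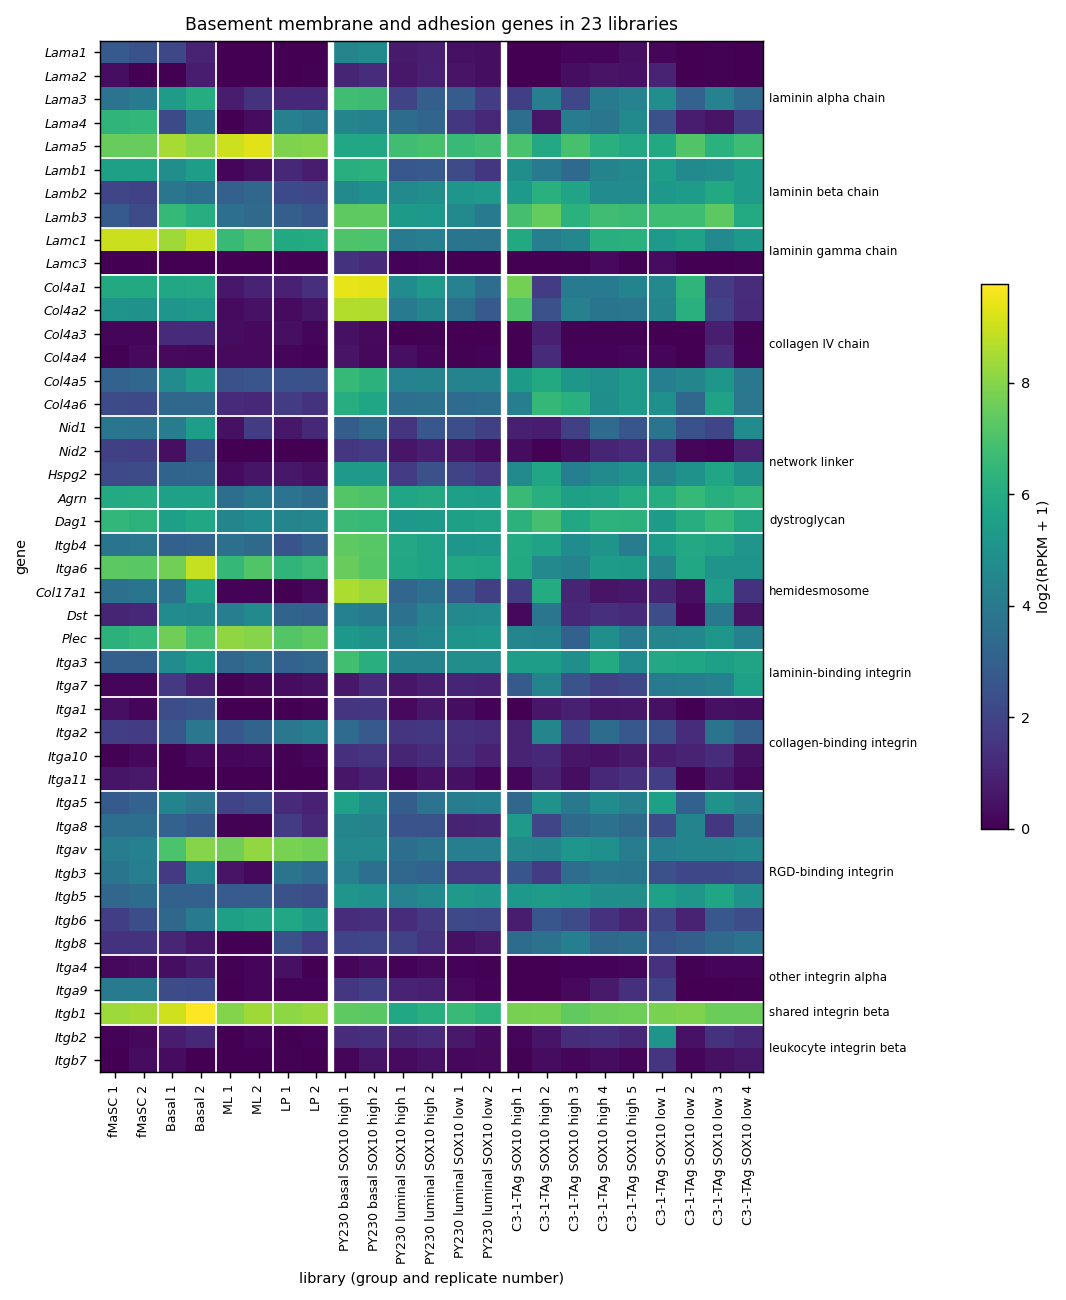
Heat map of log2(RPKM + 1), with 1 row for each gene shown, ordered by role, and 1 column for each of the 23 libraries; thick white lines separate the 3 tables, which were normalized separately. Col4a1 reads 677 and 655 RPKM in PY230 basal SOX10 high libraries, against 25.2 and 36.7 RPKM in PY230 luminal SOX10 high libraries, and Itgb1 is high in every column.

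In normal cells Basal had the highest mean of 17 of the 36 tested genes, fMaSC of 12, ML of 4 and LP of 3. In PY230 tumours basal SOX10 high cells had the highest mean of 33 of the 39 tested genes, luminal SOX10 high of 1 and luminal SOX10 low of 5. The like counts over all tested genes were not made, so no excess is read from these. The 17 for Basal and the 33 include 2 and 5 genes that reached the filter through that group only. The 45 genes summed to 3445 and 3152 RPKM in PY230 basal SOX10 high libraries, against 675 and 758 RPKM in luminal SOX10 high and 737 and 694 RPKM in luminal SOX10 low libraries. In normal cells the sums were 1853 and 1900 RPKM in fMaSC and 2470 and 3463 RPKM in Basal, against 1780 and 2245 RPKM in ML and 1267 and 1314 RPKM in LP.

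Adult basal cells stood above both adult luminal populations in most of these genes. Against LP, 25 of the 36 tested genes were higher and 2 lower in Basal, where 21.0% of all genes tested were higher and 14.5% lower. Against ML, 25 were higher and 3 lower in Basal, where 28.8% of all genes were higher and 19.8% lower. The median log2 fold change of the 36 genes was 1.66 over LP and 1.74 over ML, and that of all genes 0.08 and 0.12. The same 22 genes were higher against both luminal populations, with the largest folds for Col4a1, Col4a2, Lama3, Col17a1 and Lamb1. The 22 include Col4a3 and Itga1, which reached the filter through Basal only, so that their direction was given by it.

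Of the laminin that anchors hemidesmosomes, the alpha and beta chains were higher in Basal than in both luminal populations. Lama3, the alpha3 chain, read 12.1 and 15.6 RPKM in fMaSC and 40.4 and 65.7 RPKM in Basal, against 0.737 and 1.73 RPKM in ML and 1.13 and 1.20 RPKM in LP. Its log2 fold change was 4.60 ± 0.33 (SE) for Basal over LP (adjusted p = 0.000146) and 4.59 ± 0.33 over ML (adjusted p = 0.000101). Lamb3, the beta3 chain, read 91.8 and 67.1 RPKM in Basal, against 11.0 and 9.49 RPKM in ML and 6.76 and 5.15 RPKM in LP, and it was as low as 5.73 and 3.70 RPKM in fMaSC. Lamb3 was higher in Basal than in LP by 3.53 ± 0.27 and than in ML by 2.83 ± 0.27 on the log2 scale (adjusted p = 0.000206 and 0.000312).

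The more general laminin chains differed by population too. Lama5, the main alpha chain of adult epithelial basement membranes, was the most abundant alpha chain in every normal library, at 181 and 178 RPKM in fMaSC, 359 and 274 RPKM in Basal, 515 and 637 RPKM in ML and 234 and 250 RPKM in LP. It was lower in Basal than in ML by 0.87 ± 0.20 on the log2 scale and did not pass the test against LP (adjusted p = 0.011 and 0.192). Lamb1, the beta1 chain, read 45.6 and 46.5 RPKM in fMaSC and 27.2 and 43.4 RPKM in Basal, against 0.122 and 0.322 RPKM in ML and 1.11 and 0.738 RPKM in LP. Lamc1, the gamma1 chain of most laminins, read 507 and 505 RPKM in fMaSC and 331.6 and 483 RPKM in Basal, against 96.6 and 131 RPKM in ML and 59.7 and 64.1 RPKM in LP. Both chains were higher in Basal than in LP, by 4.21 ± 0.28 and 2.68 ± 0.24, and than in ML, by 4.86 ± 0.28 and 1.82 ± 0.24 (log2). Lamb2, the beta2 chain, was higher in Basal than in LP (12.1 ± 1.58 against 3.38 ± 0.280 RPKM, adjusted p = 0.00224) and did not pass the test against ML (7.63 ± 0.964 RPKM, adjusted p = 0.0574). Lama1, a chain of the early embryo, was listed at 0 in the ML and LP libraries and read 5.73 and 4.45 RPKM in fMaSC and 3.39 and 0.904 RPKM in Basal (1.53 ± 0.37 for Basal over each).

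**Figure D2:**
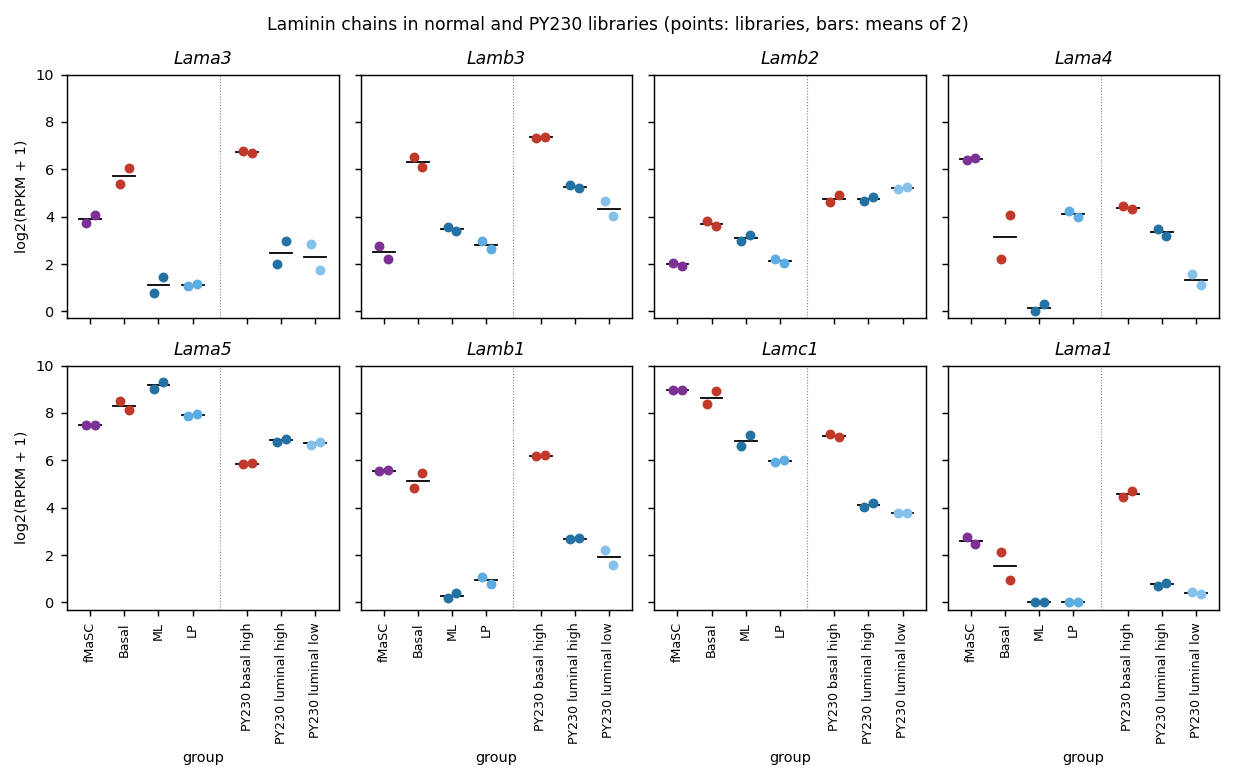
Levels of 8 laminin chains as log2(RPKM + 1) in normal (left of the dotted line) and PY230 groups (right; high and low are SOX10 high and low), with 1 point per library and a bar at the mean of 2. Lama3 and Lamb3 are highest in Basal and in PY230 basal SOX10 high cells, while Lama4 reaches 82.8 and 87.8 RPKM in fMaSC.

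Col4a1 and Col4a2, whose chains form the collagen network common to basement membranes, had the largest folds of the tested genes over LP. Col4a1 read 59.8 and 59.8 RPKM in fMaSC and 57.4 and 58.9 RPKM in Basal, against 0.551 and 0.946 RPKM in ML and 0.881 and 1.54 RPKM in LP. Col4a2 read 32 and 30.2 RPKM in fMaSC and 34.0 and 36.9 RPKM in Basal, against 0.204 and 0.396 RPKM in ML and 0.222 and 0.484 RPKM in LP. Each was higher in Basal than in LP by 4.76 on the log2 scale, with SE 0.23 for Col4a1 and 0.22 for Col4a2 (adjusted p = 4.86e-05 and 4.23e-05), and than in ML by 5.09 ± 0.23 and 4.81 ± 0.22. The ratio of Col4a1 to Col4a2 lay between 1.60 and 1.98 in the fMaSC and Basal libraries, and between 2.39 and 2.70 in ML and 3.18 and 3.97 in LP, where both were low. Col4a5 and Col4a6, chains found in basement membranes of smooth muscle and some epithelia, were higher in Basal than in LP by 2.63 ± 0.28 and 1.73 ± 0.21 and than in ML by 2.56 ± 0.28 and 2.13 ± 0.21 (log2). Col4a5 averaged 33.5 ± 12.1 RPKM in Basal, against 4.66 ± 0.501 RPKM in ML and 4.40 ± 0.0804 RPKM in LP. Col4a6 averaged 8.81 ± 0.229 RPKM in Basal, against 1.25 ± 0.0609 RPKM in ML and 1.97 ± 0.338 RPKM in LP. Col4a3, which pairs with Col4a4 and Col4a5 in kidney basement membrane, stayed near 1 RPKM in Basal (1.24 and 1.24 RPKM), and Col4a4 was under 0.2 RPKM in every normal library.

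Nid1, Hspg2, Agrn and Dag1 were also higher in Basal than in both luminal populations. Nid1 (nidogen) read 16.3 and 44.0 RPKM in Basal, against 0.371 and 2.33 RPKM in ML and 0.541 and 1.10 RPKM in LP, with log2 fold changes of 3.71 ± 0.55 over ML and 3.95 ± 0.55 over LP. Hspg2 was higher in Basal than in LP by 2.63 ± 0.21, Agrn by 2.01 ± 0.20 and Dag1 by 1.21 ± 0.19 (log2), and against ML by 2.73 ± 0.21, 1.85 ± 0.20 and 1.09 ± 0.19. Nid2 read 0.309 and 4.84 RPKM in the 2 Basal libraries and was listed at 0 in ML and LP, and it did not pass the test (adjusted p = 0.0746 against ML and 0.0912 against LP). Basal library 2 also had the highest endothelial marker sum of the normal libraries, 50.6 RPKM over 8 markers, against 8.78 RPKM in Basal library 1, and its part in the nidogen values was not tested. Without Basal library 2 a single Basal library remains, so the spread within Basal does not enter that fit and its calls are not read here. Over all alternative runs, that one included, the log2 fold change of Nid1 in Basal was at least 3.26 over LP and 3.02 over ML. For Plec it was -0.42 over ML without Basal library 2.

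Hemidesmosome genes did not move as 1 group in normal cells. Col17a1, whose product crosses the membrane at hemidesmosomes, read 11.2 and 13 RPKM in fMaSC and 11.7 and 47.9 RPKM in Basal, against 0.0736 and 0.0763 RPKM in ML and 0 and 0.151 RPKM in LP, and was higher in Basal than in ML by 4.53 ± 0.55 and than in LP by 4.54 ± 0.55 (log2). Itga6 averaged 342 ± 195 RPKM in Basal, against 113 ± 33.1 RPKM in ML and 91.4 ± 13 RPKM in LP. Its partner Itgb4 passed neither test, at 7.42 ± 0.349 RPKM in Basal, 10.2 ± 1.19 RPKM in ML and 5.91 ± 1.58 RPKM in LP. In normal libraries Itga6 stood 8.12 to 62.6 times above Itgb4, while Itgb1, the beta subunit that Itga6 can also pair with, read 539 and 872 RPKM in Basal, 246 and 332.5 RPKM in ML and 277 and 306 RPKM in LP. Dst read 25.4 and 24.2 RPKM in Basal, 17.1 and 23.8 RPKM in ML and 7.93 and 6.91 RPKM in LP, so that Basal was higher than LP (1.62 ± 0.23, adjusted p = 0.00234) but not called against ML (adjusted p = 0.34). Plec was lower in Basal than in ML (155 ± 62.5 against 267 ± 22.7 RPKM, adjusted p = 0.0399) and not called against LP (adjusted p = 0.965).

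Among the other integrins, Itga1, Itga3, Itga5, Itga8, Itga9 and Itgb1 were higher in Basal than in both luminal populations, and Itgb6 was lower. Itga3, a laminin receptor subunit, averaged 32.1 ± 9.76 RPKM in Basal, against 9.27 ± 1.24 RPKM in ML and 7.87 ± 0.682 RPKM in LP. Itga5, the fibronectin receptor subunit, averaged 16.8 ± 4.61 RPKM in Basal, against 3.22 ± 0.407 RPKM in ML and 1.06 ± 0.269 RPKM in LP, with log2 fold changes of 2.05 ± 0.27 over ML and 3.09 ± 0.27 over LP. Itga1, a collagen receptor subunit, read 3.91 and 4.38 RPKM in Basal and at most 0.323 RPKM in any other normal library. Itga9, which binds tenascin C, was higher in Basal than in LP by 2.11 ± 0.19 and than in ML by 2.16 ± 0.19, and Itga8, which binds nephronectin, by 1.49 ± 0.27 and 2.86 ± 0.27 (log2). Itgb1 was higher in Basal than in LP by 1.23 ± 0.27 and than in ML by 1.26 ± 0.27. The folds of Itga1, Itga3 and Itga6 were 2.30 ± 0.17, 1.87 ± 0.25 and 1.77 ± 0.40 over LP and 2.36 ± 0.17, 1.66 ± 0.25 and 1.49 ± 0.40 over ML (log2).

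Itgb6, whose dimer with Itgav activates latent TGF-beta, read 8.94 and 15.3 RPKM in Basal, against 45.4 and 51.3 RPKM in ML and 57.2 and 41.6 RPKM in LP. It was the single gene lower in Basal against both (log2 fold change -1.95 against ML and -1.97 against LP, adjusted p = 0.00238 and 0.00355). Itgb8, another beta partner of Itgav, was lower in Basal than in LP by 1.26 ± 0.26, but higher than in ML, where it was listed at 0. Itgav itself averaged 190 ± 90.8 RPKM in Basal, 244 ± 63.7 RPKM in ML and 212 ± 12.8 RPKM in LP and passed neither test. Itgb3 read 2.19 and 22.4 RPKM in the 2 Basal libraries, 0.442 and 0.171 RPKM in ML and 12.7 and 9.62 RPKM in LP, and was called only against ML (2.73 ± 0.80). Lama4 read 3.61 and 15.8 RPKM in Basal, 0 and 0.244 RPKM in ML and 18.0 and 14.9 RPKM in LP, and was likewise called only against ML (2.98 ± 0.53, adjusted p = 0.00377). Itga2 and Itgb5 passed neither test. With 1 library left out, the calls of Itga6, Itgb1 and Lama1 were lost in both comparisons and those of Itgb3, Itgb8, Lama5 and Plec against ML (adjusted p from 0.0507 to 0.166). In fits of the 2 groups alone, calls ended against LP for Itga6, Itgb1, Lama1, Col4a3, Itga8 and Itgb8, and against ML for Itga6, Itgb1, Lama1, Itgb3, Lama4, Lama5 and Plec (adjusted p from 0.0536 to 0.147).

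Fetal cells were higher than Basal in Lama4, Itga9, Lama1, Dag1 and Itgb4, and lower in 18 genes led by Lamb3, Dst and Itgav, while Col4a1 and Col4a2 did not pass that test. Against Basal, fMaSC had 5 of the 36 tested genes higher and 18 lower, where 36.9% of all genes tested were higher and 23.4% lower. The 18 include Col4a3 and Itga1, which reached the filter through Basal only, so that their direction was given by it. Against LP, 19 were higher and 5 lower in fMaSC (35.5% and 15.0% of all genes), and against ML 19 were higher and 9 lower (41.7% and 14.7% of all genes). The median of all genes was itself shifted, to 0.27 against Basal, 0.39 against LP and 0.53 against ML on the log2 scale, while the 36 genes had medians of -0.95, 0.87 and 0.93. With quantile normalization the counts became 2 higher and 19 lower against Basal, 15 and 9 against LP, and 16 and 10 against ML. Of all 12553 genes tested, 3796 were then higher and 3688 lower against Basal. The counts over all genes were 3090 and 3043 against LP, and 3399 and 3146 against ML. The 3 comparisons share the fMaSC libraries.

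Lama4, a laminin chain of vessels and mesenchyme, had the largest fold of these genes in fMaSC over Basal, at 82.8 and 87.8 RPKM in fMaSC (3.29 ± 0.53 over Basal, adjusted p = 0.00159). It also exceeded LP by 2.31 ± 0.53 and ML by 6.27 ± 0.53 (log2). Itga9 read 15.1 and 15.2 RPKM in fMaSC, against 3.78 and 3.53 RPKM in Basal, 0 and 0.0836 RPKM in ML and 0.0756 and 0.0742 RPKM in LP, and was higher in fMaSC by 1.80 over Basal, 3.96 over ML and 3.91 over LP, each ± 0.19. Lama1 was higher by 1.07 ± 0.37 against Basal (adjusted p = 0.0378), and Dag1 and Itgb4 by 0.71 ± 0.19 and 0.77 ± 0.23. With quantile normalization those of Lama1, Dag1 and Itgb4 were not called (adjusted p = 0.102, 0.0531 and 0.142). The 7 fibroblast markers summed to 84.7 and 102 RPKM in fMaSC, against 57.3 and 61.6 RPKM in Basal, 40.7 and 17.6 RPKM in ML and 15.5 and 26.0 RPKM in LP. The 6 fat markers summed to 237 and 211 RPKM in fMaSC, where each reached 1 RPKM in at least 1 library. In Basal, ML and LP only Fabp4 did (65.6 and 233 RPKM in Basal, 6.14 and 48.4 RPKM in ML, 17.0 and 29.9 RPKM in LP), and Retn and Plin1 were at 0. Of the fibroblast markers fMaSC had 5 of 7 above Basal and 1 below it by the test, and of the fat markers 4 of 5 tested were higher and 0 lower. None of these markers was at 0 in all fMaSC libraries, and their part in the fetal values was not tested.

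For Lamb3 the log2 fold change of fMaSC over Basal was -3.82 ± 0.27 (adjusted p = 6.6e-05). Dst read 1.01 and 1.15 RPKM in fMaSC, below each adult population, and was lower than in Basal by 3.63 ± 0.23, than in ML by 3.35 ± 0.23 and than in LP by 2.01 ± 0.23. Itgav read 16.7 and 18.6 RPKM in fMaSC, against 126 and 255 RPKM in Basal, 199 and 289 RPKM in ML and 221 and 203 RPKM in LP. Itgav was lower than in Basal by 3.27 ± 0.34, than in ML by 3.69 ± 0.34 and than in LP by 3.51 ± 0.34 (log2). Itgb6 read 2.49 and 4.02 RPKM in fMaSC and was lower than in Basal by 1.60 ± 0.31, than in ML by 3.56 ± 0.31 and than in LP by 3.57 ± 0.31. Lama3 was lower in fMaSC than in Basal by 1.83 ± 0.33 but higher than in ML and LP, by 2.76 ± 0.33 and 2.77 ± 0.33. Itga1, Itga3, Col4a5, Lamb2, Itga2, Itga5, Col4a6, Itgb1 and Col4a3 were also lower in fMaSC than in Basal, by 1.01 to 2.08 on the log2 scale, as were Hspg2, Plec and Lama5 by 0.97, 0.86 and 0.80. For Itga1 and Col4a3 this direction was given by the filter, which both reached through Basal only.

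Col4a1, Col4a2, Lamb1 and Lamc1 did not pass the test between fMaSC and Basal (adjusted p = 0.895, 0.494, 0.236 and 0.255), and each was higher in fMaSC than in both luminal populations. The log2 fold changes over LP were 4.80 ± 0.23, 4.57 ± 0.22, 4.62 ± 0.28 and 3.01 ± 0.24, and those over ML 5.13 ± 0.23, 4.63 ± 0.22, 5.27 ± 0.28 and 2.16 ± 0.24. Col17a1 did likewise, at 3.61 ± 0.55 over LP and 3.60 ± 0.55 over ML, and did not pass the test against Basal (adjusted p = 0.184). Agrn, Hspg2, Nid1, Itga8, Itga5, Dag1, Lama1 and Nid2 were higher in fMaSC than in both luminal populations, by 0.84 to 3.47 (log2). Plec and Lama5 were lower in fMaSC than in ML by 1.70 ± 0.28 and 1.67 ± 0.20, and Itga2, Lamb2 and Lamb3 by 1.00 to 1.12. Against LP, Itga2 was lower by 2.28 ± 0.40 (adjusted p = 0.00299) and Itgb4 higher by 1.08 ± 0.23, and Col4a6 was higher than in ML by 1.03 ± 0.21. Itgb3 and Itgb8 were higher than in ML (3.61 ± 0.80 and 1.43 ± 0.26). Itga6 passed none of the 3 tests, at 157 and 155 RPKM in fMaSC. With quantile normalization Col4a6, Itgb4, Itgb5 and Nid2 were not called against LP, nor Col4a6, Itga5 and Nid2 against ML (limma, adjusted p from 0.08 to 0.702). Against ML the log2 fold changes of Col4a6 and Itga5 were then 0.43 and 0.28. With 1 library left out, the calls against Basal for Lama1, Dag1, Itgb4, Itga2, Itga5, Itgb1, Lama5 and Plec ended (adjusted p from 0.0523 to 0.18), and without fMaSC library 1 the count against Basal was 15 in place of 23. The same ended those against LP for Lama4, Nid2, Itgb4, Itgb5, Col4a6 and Plec and against ML for Nid2, Itgb3, Itga2, Itga5 and Lamb3 (adjusted p from 0.0526 to 0.221).

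Between the adult luminal populations 10 of the 36 tested genes were called. In ML 6 (16.7%) were higher and 4 (11.1%) lower than in LP, where 8.63% of all genes were higher and 13.4% lower. The share of lower genes was thus under that of all genes. The medians were 0.01 for the 36 genes and -0.04 for all genes. The alpha5 chain Lama5 was higher in ML by 1.24 ± 0.20 (log2, adjusted p = 0.00633). Dst was higher by 1.33 ± 0.23, Itga5 by 1.04 ± 0.27, Lamb2 by 0.98 ± 0.22 and Lamc1 by 0.85 ± 0.24. LP instead held Lama4, Itgb3, Itgb8 and Itga8, which were lower in ML by 3.96 ± 0.53, 3.21 ± 0.80, 2.11 ± 0.26 and 1.37 ± 0.27. Itgb3, the subunit known as CD61, read 0.442 and 0.171 RPKM in ML and 12.7 and 9.62 RPKM in LP, and Itgb8 was listed at 0 in both ML libraries and read 4.30 and 2.53 RPKM in LP. No collagen IV or linker gene was called. The calls of Lama4 and Itgb8 held with each library left out, and the count of 10 became 5 without LP library 1, 6 without LP library 2, 5 without ML library 1 and 3 without ML library 2.

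Basal cells of PY230 tumours were higher than both luminal fractions in most of the genes, and here Itgb4 was called as well. In basal SOX10 high cells 30 of the 39 tested genes were higher and 1 lower than in luminal SOX10 high cells, where 13.8% of all genes tested were higher and 28.2% lower. Against luminal SOX10 low cells 30 were higher and 3 lower, where 21.8% of all genes were higher and 33.4% lower. The medians were 1.29 and 1.5 for the 39 genes and -0.21 and -0.16 for all genes. These comparisons share the basal libraries, and 28 genes were higher in both. The 28 include Lama1, Lamc3, Nid2, Itga1 and Itga9, which reached the filter through basal SOX10 high only, so that their direction was given by it.

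**Figure D3:**
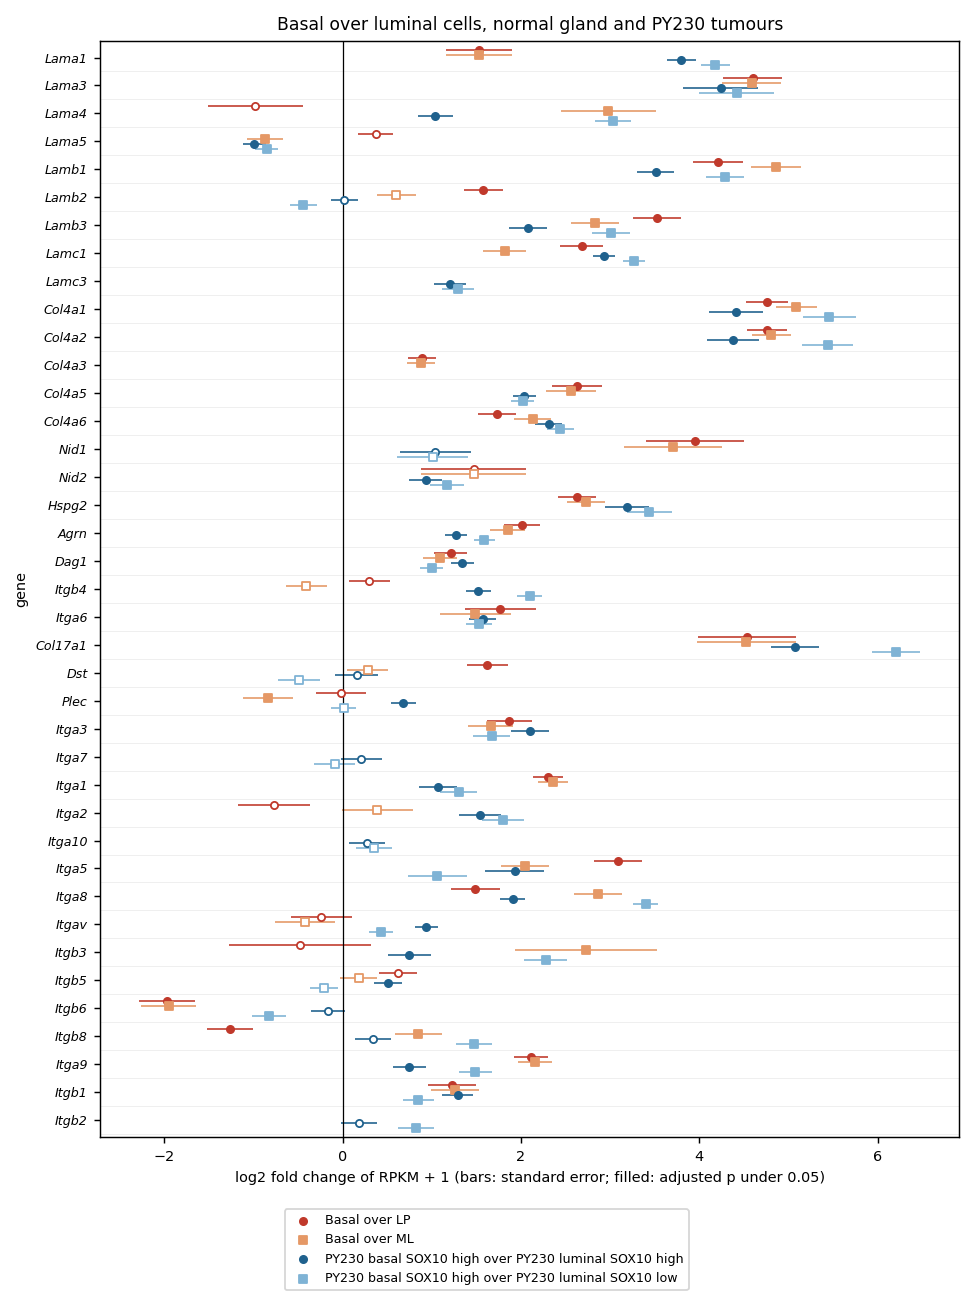
Log2 fold changes of RPKM + 1 with standard errors for basal over luminal cells, in the normal gland (red and orange) and in PY230 tumours (dark and light blue), for the genes shown, each tested in at least 1 of the tables; filled symbols passed an adjusted p of 0.05. Col4a1, Col4a2, Lama3, Lamb1 and Col17a1 lie far to the right in all 4 comparisons, Itgb4 is filled only for the tumours, and Lama5 lies left of 0 in 3 of 4.

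Col17a1 had the largest fold of the group in the tumours. It read 382 and 327 RPKM in basal SOX10 high, against 8.38 and 10.9 RPKM in luminal SOX10 high and 5.29 and 2.64 RPKM in luminal SOX10 low cells. The log2 fold change was 5.07 ± 0.27 over luminal SOX10 high and 6.21 ± 0.27 over luminal SOX10 low cells (adjusted p = 9.38e-05 and 2.89e-05). Itgb4 read 164 and 148 RPKM in basal SOX10 high, against 59.1 and 48.7 RPKM in luminal SOX10 high and 35.2 and 35.9 RPKM in luminal SOX10 low cells, and was called in both (1.52 ± 0.14 and 2.10 ± 0.14). Itga6 read 179 and 146 RPKM in basal SOX10 high, against 57.4 and 50.3 RPKM and 56.0 and 54.4 RPKM in the luminal SOX10 high and low cells. The ratio of Itga6 to Itgb4 was between 0.972 and 1.59 in all 6 tumour libraries. Plec was higher in basal cells only against luminal SOX10 high (0.68 ± 0.14), and Dst was called in neither (17.0 ± 2.50 RPKM in basal SOX10 high, 15.5 ± 5.53 RPKM in luminal SOX10 high and 24.1 ± 1.34 RPKM in luminal SOX10 low cells).

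Lama3 and Lamb3, chains of the hemidesmosome laminin, were higher in the basal tumour cells. Lama3 read 108 and 101 RPKM in basal SOX10 high, against 2.97 and 6.84 RPKM in luminal SOX10 high and 6.25 and 2.38 RPKM in luminal SOX10 low cells. Lamb3 read 160 and 163 RPKM, against 39.3 and 35.8 RPKM and 24 and 15.3 RPKM in the luminal SOX10 high and low cells. The log2 fold changes over luminal SOX10 high cells were 4.24 ± 0.42 for Lama3 and 2.08 ± 0.21 for Lamb3. Lama1 read 20.9 and 24.7 RPKM in basal SOX10 high cells and at most 0.776 RPKM in the luminal libraries (3.8 ± 0.16 over luminal SOX10 high). Its direction, like that of Lamc3, was given by the filter, which both reached through basal SOX10 high only. Lamb1 and Lamc1 were higher by 3.51 ± 0.21 and 2.93 ± 0.12, Lamc3 by 1.20 ± 0.18 and Lama4 by 1.04 ± 0.20 over luminal SOX10 high cells. Lama5 went the other way, at 56.4 and 57.7 RPKM in basal SOX10 high, against 109 and 119 RPKM in luminal SOX10 high and 98.5 and 110 RPKM in luminal SOX10 low cells (adjusted p = 0.00153 and 0.00164).

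Of the collagen IV genes Col4a1, Col4a2, Col4a5 and Col4a6 were higher in the basal tumour cells. Col4a1 read 677 and 655 RPKM in basal SOX10 high, against 25.2 and 36.7 RPKM in luminal SOX10 high and 19.2 and 10.3 RPKM in luminal SOX10 low cells, and Col4a2 read 399 and 388 RPKM, against 15.1 and 21.3 RPKM and 11.3 and 5.75 RPKM. Their log2 fold changes were 4.41 ± 0.30 and 4.38 ± 0.29 over luminal SOX10 high and 5.46 ± 0.30 and 5.44 ± 0.29 over luminal SOX10 low cells. The ratio of Col4a1 to Col4a2 lay between 1.67 and 1.79 in these 6 libraries. In the C3-1-TAg SOX10 high libraries it ran from 0.527 to 1.57. Those values were normalized separately and had a constant of 2 taken off, which weighs on the ratio at low levels. The lowest ratio was that of library 2, where Col4a1 was low. Col4a5 and Col4a6 were higher by 2.04 ± 0.13 and 2.31 ± 0.15 over luminal SOX10 high and by 2.02 ± 0.13 and 2.44 ± 0.15 over luminal SOX10 low cells. Hspg2, Agrn and Dag1 were higher by 3.19 ± 0.25, 1.27 ± 0.12 and 1.34 ± 0.13 over luminal SOX10 high cells. Nid2 was higher in both (0.93 ± 0.19 and 1.17 ± 0.19), a direction given by the filter, which it reached through basal SOX10 high only. Nid1 was called in neither (7.88 ± 2.27 RPKM in basal SOX10 high, 3.60 ± 2.51 RPKM in luminal SOX10 high and 3.40 ± 1.07 RPKM in luminal SOX10 low cells).

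Of 17 tested integrin subunits 12 were higher and 0 lower than in luminal SOX10 high cells, where 13.8% of all genes were higher and 28.2% lower. Against luminal SOX10 low cells 13 were higher and 1 lower, where 21.8% of all genes were higher and 33.4% lower. Both counts include Itga1 and Itga9, which reached the filter through basal SOX10 high only. Itga3 was higher in basal SOX10 high than in luminal SOX10 high cells by 2.10 ± 0.21, Itga5 by 1.93 ± 0.33, Itga8 by 1.91 ± 0.14, Itga2 by 1.54 ± 0.24, Itgb1 by 1.29 ± 0.17 and Itga1 by 1.07 ± 0.21 (log2). Against luminal SOX10 low cells Itga8 was higher by 3.40 ± 0.14, Lama4 by 3.03 ± 0.20, Itgb3 by 2.28 ± 0.24, Itga9 by 1.49 ± 0.18 and Itgb8 by 1.47 ± 0.20. Among the matrix genes, Lama3, Lamb1, Lama1, Hspg2, Lamc1 and Lamb3 were higher than in luminal SOX10 low cells by 4.42 ± 0.42, 4.29 ± 0.21, 4.18 ± 0.16, 3.44 ± 0.25, 3.27 ± 0.12 and 3.01 ± 0.21. Itga2, Itga3, Agrn and Itga6 were higher there by 1.80 ± 0.24, 1.67 ± 0.21, 1.59 ± 0.12 and 1.53 ± 0.15, and Itga1, Lamc3, Itga5 and Dag1 by 1.00 to 1.3. Itga6 was higher than in luminal SOX10 high cells by 1.57 ± 0.15. Itgb6 was lower than in luminal SOX10 low cells (1.45 ± 0.108 against 3.35 ± 0.159 RPKM, adjusted p = 0.00992), as was Lamb2 (adjusted p = 0.0383). Itga7 and Itga10 were called in neither comparison.

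Markers of other cell types were summed in the same libraries. The 7 fibroblast markers summed to 189 and 323 RPKM in basal SOX10 high, against 100 and 190 RPKM in luminal SOX10 high and 130 and 64.5 RPKM in luminal SOX10 low libraries. The 8 endothelial markers summed to 8.11 and 11.3 RPKM, against 5.58 and 6.97 RPKM and 6.09 and 5.61 RPKM in the luminal SOX10 high and low libraries. By the test, 1 of 7 fibroblast markers was higher in basal SOX10 high than in luminal SOX10 high cells and 3 of 7 than in luminal SOX10 low cells. Among 4 tested endothelial markers 1 was higher than in luminal SOX10 high and 3 than in luminal SOX10 low cells, with 0 lower. Pericyte and smooth muscle markers had 1 of 4 tested higher and 1 lower than in luminal SOX10 high cells. Against luminal SOX10 low cells 3 were higher and 1 lower. Of the 6 fat markers only Fabp4 reached 1 RPKM in any of these libraries. Fabp4 was higher in basal SOX10 high than in luminal SOX10 high and low cells, by 2.85 and 4.05 (log2). The fibroblast collagen Col1a1 read 48.2 and 83.7 RPKM in basal SOX10 high, 27.6 and 55.9 RPKM in luminal SOX10 high and 40.1 and 20.3 RPKM in luminal SOX10 low cells, and the part of other cells in the matrix values was not tested. With 1 library left out, calls over luminal SOX10 high cells ended for Itga9, Itgb3, Itgb5, Lama4 and Plec, and over luminal SOX10 low cells for Itga5, Itgav, Itgb1, Itgb2, Itgb6 and Lamb2 (adjusted p from 0.0505 to 0.192).

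Within the luminal PY230 cells the SOX10 high fraction differed from the low fraction in fewer genes and by smaller folds. In luminal SOX10 high cells 11 of the 39 tested genes were higher and 4 lower, where 12.6% of all genes were higher and 10.0% lower, with medians of 0.17 for the 39 genes and 0.01 for all genes. Lama4 read 10.1 and 8.17 RPKM in luminal SOX10 high, against 1.97 and 1.17 RPKM in luminal SOX10 low cells (1.99 ± 0.20, adjusted p = 0.00305). Itga8 read 4.64 and 4.60 RPKM, against 0.984 and 0.998 RPKM (1.5 ± 0.14, adjusted p = 0.00255). Itgb3 read 8.72 and 7.30 RPKM, against 2.14 and 2.09 RPKM (1.53 ± 0.24, adjusted p = 0.0101). Itgb8 was higher by 1.13 ± 0.20, Col17a1 by 1.14 ± 0.27, Col4a1 and Col4a2 by 1.06 with SE 0.30 and 0.29, and Lamb3, Lamb1, Itga9 and Itgb4 by 0.58 to 0.94. Of these, Itga9 stayed under 1 RPKM in every luminal library and reached the filter through basal SOX10 high only. Plec, Itgb5, Itgb6 and Itgav were lower, by 0.51 to 0.72. Itga6 passed no test here (adjusted p = 0.875), nor did Lama3 (adjusted p = 0.792). Marker lists differed between these fractions too. The 6 luminal progenitor markers summed to 1843 and 844 RPKM in luminal SOX10 high, against 158 and 171 RPKM in luminal SOX10 low libraries (4 higher by the test), and the 7 mature luminal markers to 476 and 949 RPKM, against 2061 and 2359 RPKM (3 lower). The 8 immune markers summed to 126 and 146 RPKM, against 64.4 and 40.8 RPKM (3 of 5 tested higher), and the 7 basal markers to 72.3 and 92.2 RPKM, against 51.7 and 28.4 RPKM (3 higher). Their part in these values was not tested. Only the calls of Lama4 and Itga8 held under every alternative run. The count was 2 without luminal SOX10 high library 1, 2 without luminal SOX10 low library 2 and 8 without luminal SOX10 low library 1, and with median-of-ratios factors it split into 9 higher and 6 lower. Without luminal SOX10 high library 2 it split into 7 higher and 8 lower.

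The C3-1-TAg libraries of each fraction differed widely among themselves. Across the 33 tested genes the median residual SD was 0.603 on the log2 scale, against 0.39 over all genes of that table. Over all tested genes SOX10 high library 1 resembled SOX10 low library 2 most (correlation of log2 values 0.979), and SOX10 high library 2 resembled SOX10 low library 3 (0.967), while the other libraries reached at most 0.91 with a library of the other fraction. SOX10 low library 1 carried an immune marker sum of 2147 RPKM, against 11.8 to 149 RPKM in the SOX10 high and 25.6 to 107 RPKM in the other SOX10 low libraries. The labels do not tie libraries to tumours.

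No gene of the group was called between C3-1-TAg SOX10 high and low cells with limma, where 0.0418% of all genes tested (5 of 11948) were higher and 0% lower in SOX10 high. At an unadjusted p under 0.05 there were 4 of the 33 genes and 365 of all genes. The medians were -0.12 for the 33 genes and -0.04 for all genes, and the count stayed 0 under every alternative run, including each library left out. No fit paired the similar libraries of the 2 fractions, since no label pairs them. The groups of SOX10 high and low libraries overlapped for all 33 genes. The like count over all genes tested was not made, so nothing particular to these genes is read from it. The 4 genes were Lama4 (1.98 ± 0.75), Col4a5 (0.86 ± 0.28), Lamb1 (-0.82 ± 0.32) and Itga7 (-1.74 ± 0.50, all log2, unadjusted p = 0.0243, 0.0122, 0.0259 and 0.00525).

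**Figure D4:**
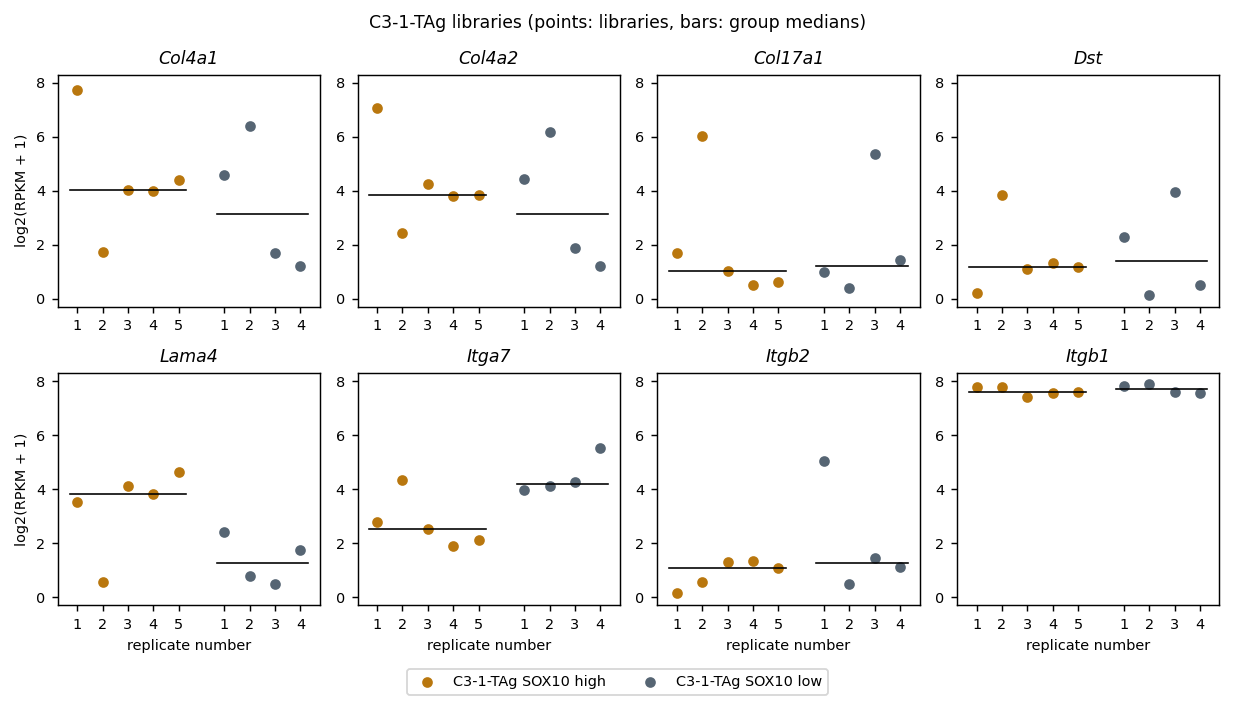
Levels of 8 genes as log2(RPKM + 1) in each C3-1-TAg library, 5 SOX10 high (left) and 4 SOX10 low (right), with a bar at each group's median. Col4a1, Col4a2, Col17a1 and Dst range widely within both groups, and Itgb1 stays between 168 and 236 RPKM in all 9 libraries.

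Lama4 read 10.5, 0.493, 16.6, 13.1 and 23.9 RPKM in SOX10 high and 4.31, 0.721, 0.412 and 2.36 RPKM in SOX10 low libraries. Thus 4 of 5 SOX10 high libraries lay above each SOX10 low library. Itga7, a laminin receptor subunit best known from muscle, read 5.89, 19.4, 4.73, 2.74 and 3.36 RPKM in SOX10 high and 14.8, 16.5, 18.4 and 45 RPKM in SOX10 low libraries, with SOX10 high library 2 among the SOX10 low values. Col4a1 read 209, 2.34, 15.2, 15.0 and 20.2 RPKM in SOX10 high and 23.2, 83.3, 2.27 and 1.34 RPKM in SOX10 low libraries. The 2 libraries with most Col4a1 were the similar pair SOX10 high 1 and SOX10 low 2, which also had the lowest fibroblast marker sums (4.37 RPKM in SOX10 high 1 and 7.17 RPKM in SOX10 low 2). Col17a1 read 2.25, 64.1, 1.02, 0.438 and 0.541 RPKM in SOX10 high and 1.00, 0.330, 39.7 and 1.67 RPKM in SOX10 low libraries. Dst was high in the same pair, SOX10 high 2 (13.3 RPKM) and SOX10 low 3 (14.5 RPKM), as was the basal marker Trp63 (31.9 and 16.4 RPKM). Over all 7 basal markers the other pair summed highest, to 781 RPKM in SOX10 high 1 and 1010 RPKM in SOX10 low 2. The sums were 517 RPKM in SOX10 high 2 and 491 RPKM in SOX10 low 3. Itgb2, the beta subunit of leukocyte integrins, read 32.1 RPKM in SOX10 low 1 and at most 1.72 RPKM in the other 8 libraries. Itgb1 varied least of the 33 genes, by 1.40 times between its lowest and highest library (SD 0.16 of log2(RPKM + 1)), and on that scale Col4a1 (SD 2.18) and Col17a1 (SD 2.13) varied most. In the C3-1-TAg table Lama1, Lama2, Lamc3, Col4a3, Col4a4, Nid2, Itga1, Itga4, Itga9, Itga10, Itga11 and Itgb7 were not tested.

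PY230 luminal and C3-1-TAg cells were each split by SOX10, with no library in common. Of the 33 genes tested in both, 10 had a higher mean log2 level in SOX10 high cells of both models, 11 a lower one in both and 12 opposite signs. Lama4 differed by 1.99 ± 0.20 in PY230 luminal and by 1.98 ± 0.75 in C3-1-TAg cells, and only the PY230 difference was called.

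The share of each laminin alpha chain also differed between populations. Lama5 made up 99.9% and 99.7% of the summed alpha chain RPKM in ML and 92.5% and 93.9% in LP, with 64.1% and 62.3% in fMaSC and 88.3% and 76.7% in Basal. Lama4 held 29.4% and 30.7% in fMaSC and 0.887% and 4.43% in Basal. In PY230 basal SOX10 high cells Lama3 was the largest part, at 52.2% and 49.7%, against 2.41% and 5.03% in luminal SOX10 high and 5.81% and 2.09% in luminal SOX10 low cells. Lama1 held 10.1% and 12.1% there. Among beta chains Lamb1 made up 83.8% and 87.7% in fMaSC, against 20.6% and 35.8% in Basal, where Lamb3 made up 69.4% and 55.2%. Among integrin beta subunits Itgb1 held 89.3% and 88.2% in fMaSC, 95.2% and 94.2% in Basal, 79.6% and 83.2% in ML and 76.9% and 82.5% in LP. In PY230 basal SOX10 high cells Itgb1 and Itgb4 held like parts, 42.5% and 44.2% for Itgb1 and 42.7% and 42.4% for Itgb4. Shares are of RNA per length, and protein was not measured.

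**Figure D5:**
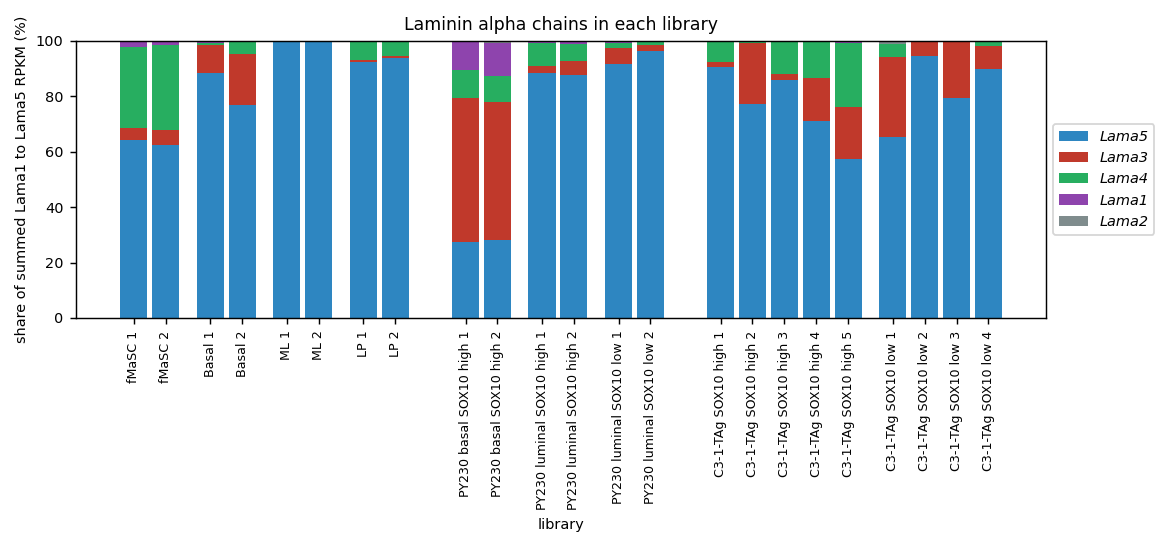
Share of each laminin alpha chain in the summed RPKM of Lama1 to Lama5, with 1 stacked bar per library, by group. Lama5 fills 99.9% and 99.7% of the ML bars, while Lama3 fills 52.2% and 49.7% of the PY230 basal SOX10 high bars.

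Genes outside the 45 were counted on lists of known function, to be read beside the shares of all genes given above for the same comparison (21.0% higher and 14.5% lower for Basal against LP). Of 17 tested further basement membrane genes 9 were higher and 1 lower in Basal than in LP, 12 higher and 2 lower than in ML, with Sparc, a collagen-binding matrix protein, at 217 ± 22.1 RPKM in Basal, 1.58 ± 1.23 RPKM in ML and 5.22 ± 4.56 RPKM in LP. In PY230 basal SOX10 high cells 13 of 18 were higher and 4 lower than in luminal SOX10 high cells, among them Col7a1, the anchoring fibril collagen, at 268 ± 5.86 against 12.0 ± 5.04 RPKM. Of 11 tested genes of collagen folding and crosslinking 7 were higher in Basal than in LP, and 7 of 13 in PY230 basal than in luminal SOX10 high cells. Serpinh1, the collagen chaperone, read 47.1 ± 5.49 RPKM in Basal, 0.845 ± 0.0616 RPKM in ML and 4.16 ± 0.0559 RPKM in LP. In the tumours Serpinh1 read 296 ± 19.0 RPKM in basal SOX10 high and 72.7 ± 2.76 RPKM in luminal SOX10 high cells. Between the luminal tumour fractions 2 of these 13 genes were higher and 1, the protease Bmp1, was lower in SOX10 high cells. Serpinh1 was higher in SOX10 high than in SOX10 low cells by 2.0 and Plod2, a collagen lysyl hydroxylase, by 2.23 (log2, adjusted p = 0.00365 and 0.00324).

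Of 19 tested focal adhesion genes 10 were higher and 1 lower in Basal than in LP, 11 higher and 0 lower than in ML, and in PY230 basal SOX10 high cells 14 of 20 were higher and 0 lower than in luminal SOX10 high cells. In fMaSC 6 of these 19 were higher and 9 lower than in Basal. Fblim1, a filamin-binding adhesion protein, averaged 148 ± 5.57 RPKM in fMaSC, 74.3 ± 2.14 RPKM in Basal, 3.97 ± 1.57 RPKM in ML and 9.38 ± 4.31 RPKM in LP. Of 7 further hemidesmosome and keratin genes 5 were higher and 0 lower in Basal than in LP, among them Krt14, at 872 ± 482 against 3.47 ± 2.14 RPKM. Of 15 matrix proteases and inhibitors 6 were higher and 1 lower in Basal than in LP, with Mmp2, a gelatinase, at 69.7 ± 8.57 against 0.726 ± 0.571 RPKM. Of 12 genes of the dystroglycan complex 4 were higher and 1 lower, and of 8 other laminin and collagen receptors 1 was higher and 1 lower (Ddr2, a collagen receptor kinase, and the syndecan Sdc4). In fMaSC 5 of the 7 hemidesmosome and keratin genes were lower than in Basal. None of these genes was called between C3-1-TAg SOX10 high and low cells with limma as run for the 45.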

How the data were processed

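The deposited files are 3 tables of RPKM per gene symbol and library, made by the authors; per the submitters' processing notes FastQC, HISAT2 2.0.5, StringTie 1.3.1c and build mm9 were used. Per the labels' protocols, SmartSeq2 libraries of polyadenylated RNA were read as 50 or 75 base single ends, without strand or molecular identifiers. RPKM holds no counts, so the depth is unknown and intervals of counting error are not given. In the C3-1-TAg table the lowest value above 0 was 2.001, and a constant of 2 was taken off values above 0. Genes with at least 1 RPKM in 2 libraries (4 for C3-1-TAg) were tested with limma 3.58.1 (R 4.3.3) on log2(RPKM + 1), all groups of a table in 1 fit with an intensity trend, two-sided, with Benjamini-Hochberg adjustment over all genes of the table. The fit was tested on simulated data. Tables were normalized separately, and tests stay within a table.

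Counts, sums and medians cover all 45 genes; the values of 1 of them are not reported here. Apart from that gene, the text names in each comparison those called at 0.05 whose log2 fold change reached 1 in either direction, and the partners that complete a protein. The genes and lists were chosen with earlier results of these data known. Alternatives were a pseudocount of 0.1, no filter, quantile normalization, median-of-ratios factors, no trend, a replicate block, the 2 groups alone and leaving out each library; for C3-1-TAg also array weights and the values as deposited.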

Additional observations from a re-analysis of the deposited data

Results flagged for a closer look

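All flagged values are single C3-1-TAg libraries far from the others of their fraction, 9 of 66 groups of values examined. The rule flags about 1 in 20 by chance only for independent values with a normal spread. The genes share libraries and the spread of these RPKM was not tested, so 9 of 66 is not read as an excess. SOX10 high library 1 stood out for Col4a1 (209 RPKM), Col4a2 (133 RPKM) and Itga8 (36.6 RPKM). SOX10 high library 2 stood out for Col17a1 (64.1 RPKM), Dst (13.3 RPKM) and Itga7 (19.4 RPKM). SOX10 low library 3 stood out for Col17a1 (39.7 RPKM), SOX10 low library 4 for Itga7 (45 RPKM) and SOX10 low library 1 for Itgb2 (32.1 RPKM). The cause was not tested.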

How the results depend on the processing

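No call reversed under any alternative run. With each library left out, the count of called genes ran from 15 to 27 for fMaSC against Basal (23 with all libraries), from 3 to 6 for ML against LP (10) and from 2 to 15 for PY230 luminal SOX10 high against low (15). That last count was 7 with no filter and 7 with the 2 groups alone. In the C3-1-TAg comparison 1 gene of the pathway lists was called with quantile normalization, against 0 otherwise. The cause was not tested. Over single genes, leaving out a library ended 153 of 876 calls examined, the 2 groups alone 28 of 219, no filter 23, quantile normalization 14 and median-of-ratios factors 11.

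Replicate numbers are shared between groups, but the labels do not say that they pair libraries. With a replicate block the counts were 24, 23 and 28 for fMaSC against Basal, LP and ML, 27 and 28 for Basal against LP and ML, 10 for ML against LP, 30 and 33 for PY230 basal SOX10 high against luminal SOX10 high and low, 10 for PY230 luminal SOX10 high against low, and 0 for C3-1-TAg. Deviations of same-numbered PY230 luminal libraries correlated at -0.265, and a block with crossed numbers, chosen after seeing the data, gave 17 calls there. Depth is unknown in RPKM tables, so limits at low values cannot be given.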
